A study of Homo sapiens with 2 samples.

Results

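The replication-dependent histone genes encode the linker histone H1 and the core histones H2A, H2B, H3 and H4 that package newly copied DNA. They were taken by symbol as the protein-coding genes H1-1 to H1-6 and those whose names begin with H2AC, H2BC, H3C or H4C and a digit. The rule found 70 genes among the 60623 of the count tables: 6 for H1, 17 for H2A, 19 for H2B, 13 for H3 and 15 for H4. Pseudogenes, of which 13 matched the names, were left out.

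RNA came from OCI-AML3, an established line of acute myeloid leukaemia labelled as bone marrow and of WT genotype, grown in MEM alpha medium with serum. Of the 2 cultures, 1 was given omipalisib (GSK2126458) at 50 nM for 24 h, an inhibitor of the class I phosphoinositide 3-kinases and mTOR, and 1 was given its vehicle, DMSO. The comparison asks how gene expression in the line differed after the drug. All 8 listed myelomonocytic markers had at least 20 counts over the pair of libraries, among them CEBPA with 14309 counts in DMSO and 14695 in omipalisib, while 7 of 12 markers of lymphoid, erythroid, stromal and epithelial cells had 0 in both, and the highest of the other 5 was PDGFRB with 18 and 17. Of the 8 myelomonocytic markers 6 were higher by the measure used below, from SPI1 (log2 ratio 0.08) to CSF1R (1.66), against 26.1% of all measured genes. MPO and ITGAM had intervals that included 0. At a ratio of at least 1.5, 1 of the 8 was higher, against 9.58%. The markers had a median summed count of 3457.5, against 967 over all measured genes, so smaller differences pass. Their part in the histone differences was not tested.

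There was 1 library per treatment, with 26367832 counted fragments in DMSO and 22599164 in omipalisib, so no difference below has a replicate check and no p-value is given. Each log2 ratio is omipalisib over DMSO after scaling of the libraries, and is relative to the rest of the library. The 95% interval after it is exact, takes in counting error alone: it compares one library with another, not the treatments. A gene was measured where its counts summed to at least 20, and is called higher or lower where the interval excluded 0. In bulk RNA, fewer cells in a phase and less RNA per cell cannot be told apart.

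Most messages of these genes are known to be made in S phase, to lack a poly(A) tail and to end instead just after a short stem-loop. The stem-loop is bound by SLBP, and cleavage behind it needs the U7 snRNP. Some of the genes are also known to give longer messages that run past the stem-loop to a poly(A) site, and these messages have been described in cells that leave the cycle and differentiate. How messenger RNA was enriched, by its poly(A) tail or by depleting ribosomal RNA, is not given in the sources used here, and it bears directly on how much of each kind of message a library holds.

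The stem-loop was found after the stop codon in the GENCODE 29 transcripts of 31 of the 70 genes, between 22 and 67 bases behind it, in a search for its consensus on the transcript strand. The letters are shown because the counted gene models differ in how far they run past them. The capitals mark the 16 bases of the stem-loop, with 5 bases on either side, written 5′ to 3′ as DNA.
H2AC6: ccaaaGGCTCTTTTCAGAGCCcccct
H2BC21: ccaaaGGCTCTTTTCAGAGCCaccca
H2AC25: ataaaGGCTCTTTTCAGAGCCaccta
H2BC5: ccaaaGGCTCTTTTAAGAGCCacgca
H2AC11: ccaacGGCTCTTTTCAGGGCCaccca
H4C8: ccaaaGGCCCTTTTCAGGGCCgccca
H4C5: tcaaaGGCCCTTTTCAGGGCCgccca
H2AC8: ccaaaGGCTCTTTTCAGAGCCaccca
On GRCh38 the capitals lie at chr6:26124669-26124684 (plus strand) for H2AC6, chr1:149886188-149886203 (minus) for H2BC21, chr1:228457369-228457384 (minus) for H2AC25 and chr6:26158587-26158602 (plus) for H2BC5. For H2AC11 they lie at chr6:27133515-27133530 (plus), for H4C8 at chr6:26285131-26285146 (minus), for H4C5 at chr6:26205001-26205016 (plus) and for H2AC8 at chr6:26217417-26217432 (plus), in each case behind the stop codon of the transcript. The form of H2AC6 was shared by 17 genes of the H2A, H2B and H3 families, and the form of H2BC5 by 4 genes of the H2B and H3 families. The form of H4C8, with other bases in the stem, was found in 5 genes, all of them H4, and 3 further H4 genes had a form that differed in the loop. H2AC11 alone had its form, and H3C6 alone had another. In 24 genes the counted model went on for at least 100 bases after the stem-loop, in 7 it ended before that, in 37 the transcripts held no such stem-loop, and 2 genes, H3C2 and H3C3, were not in that release. For 32 genes the annotated transcript stopped at the stop codon, so the end of the message lies outside what was counted.

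The histone genes gave few counts, and their sum was higher after omipalisib. Together they held 2592 counts in DMSO and 4321 in omipalisib, which is 0.00983% and 0.0191% of the fragments for a log2 ratio of 0.91 (0.84 to 0.98). Of the 70 genes, 14 had 0 counts in both libraries, 32 had between 1 and 19 counts, and 24 were measured. The 46 genes that were not measured held only 128 and 107 counts in all for a log2 ratio of −0.08 (−0.47 to 0.30). A count of 0 in a library allows up to 0.114 CPM, the count scaled to library size, in DMSO and 0.133 in omipalisib at a limit of 3 counts, and this covers counting error only. Low counts went with short models: of 38 genes with a counted model of at most 600 bases, 4 were measured, against 20 of the 32 with longer models.

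Among the 24 measured genes, 12 were higher, 1 was lower and 11 had intervals that included 0. Over all 15660 measured genes the interval excluded 0 upward in 26.1% and downward in 28.6%. Among the 9955 measured genes with no more counts than the highest histone gene, these shares were 25.3% and 16.4%. The median log2 ratio of the 24 genes was 0.53, against 0.003 over all measured genes. A ratio of at least 1.5 with an interval clear of 0 was reached upward by 11 of the 24, against 9.58% of all measured genes, and a ratio of at least 2 by 5, against 4.02%. Downward, 1 gene passed both ratios, against 4.76% and 1.29%. Among the 9955 genes in the same range of counts, the shares past a ratio of 1.5 were 13.2% upward and 5.14% downward, and past a ratio of 2 they were 6.02% and 1.92%. Under each of 4 ways of scaling the libraries, the 24 genes kept their calls.

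**Figure D1:**
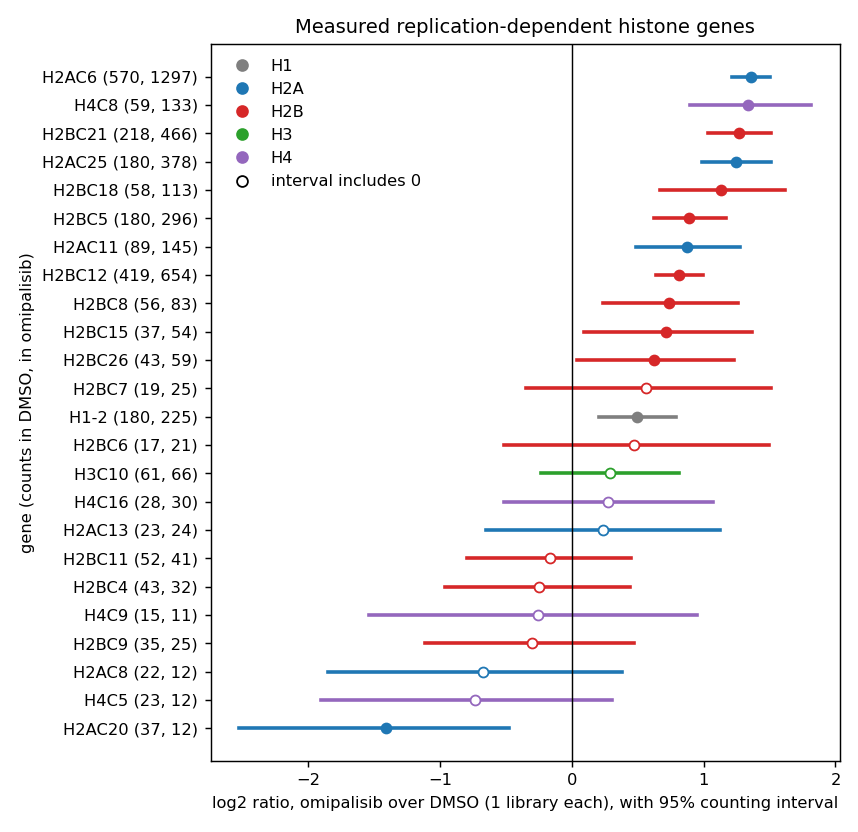
Log2 ratio of omipalisib over DMSO (x axis) for each of the 24 measured genes (y axis, with the counts in DMSO and in omipalisib), with 1 library per treatment. Bars are 95% counting intervals, colours are histone families, and open points have intervals that include 0; 12 genes lie wholly above 0 and H2AC20 wholly below.

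The 6 genes with at least 100 counts in DMSO were all higher, against 26.1% of all measured genes. Smaller differences pass at higher counts, and the share among genes with at least 100 counts was not computed. The 3 genes H4C8, H2BC18 and H2AC11 reached 100 in omipalisib alone, a choice that favours higher genes. Those 6, which also had the most counts over both libraries, were H2AC6, H2BC12, H2BC21, H2AC25, H2BC5 and H1-2. They took 1747 of the histone counts in DMSO and 3316 in omipalisib. Their summed log2 ratio was 1.10 (1.01 to 1.18). The other 64 genes had 845 and 1005 counts for a log2 ratio of 0.42 (0.29 to 0.56), and the difference between these sums was 0.67 (0.52 to 0.83) on the log2 scale.

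H2AC6 (HIST1H2AC, chromosome 6, 26124145 to 26139116 on GRCh38, plus strand), a core histone H2A gene, had the most counts, 570 in DMSO and 1297 in omipalisib. Its log2 ratio of 1.36 (1.22 to 1.5) was also the highest among the measured histone genes. Its model has 2 exon blocks, and 1128 of its bases lie after the stem-loop. H2AC25 (HIST3H2A, chromosome 1, 228456979 to 228457873, minus strand), the H2A gene of a small group on the long arm, had 180 and 378 counts for a log2 ratio of 1.24 (0.98 to 1.51). H2AC11 had 89 and 145 counts for a log2 ratio of 0.87 (0.49 to 1.28). These 3 were the higher H2A genes. H2AC20 was the 1 lower histone gene, with 37 counts in DMSO and 12 in omipalisib for a log2 ratio of −1.41 (−2.53 to −0.48). Its counted model, on chromosome 1 from 149886975 to 149887364, ends at the stop codon, and 23.7% of its windows occur in another annotated gene. H2AC8 had 22 and 12 counts and H2AC13 had 23 and 24, both with intervals that included 0.

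The H2B genes had the largest number of measured members, 12, and 7 were higher with none lower, against 26.1% and 28.6% of all measured genes. H2BC12 (HIST1H2BK, chromosome 6, 27146418 to 27146798, minus strand) had 419 counts in DMSO and 654 in omipalisib for a log2 ratio of 0.82 (0.64 to 1.0). Its counts are uncertain, because 50.5% of its 75-base windows occur in another annotated gene. H2BC21 (HIST2H2BE, chromosome 1, 149884459 to 149886652, minus strand) had 218 and 466 counts for a log2 ratio of 1.27 (1.03 to 1.51). H2BC5 (HIST1H2BD, chromosome 6, 26158146 to 26171349, plus strand) had 180 and 296 for a log2 ratio of 0.89 (0.62 to 1.17). H2BC18, on chromosome 1, had 58 and 113 for a log2 ratio of 1.13 (0.67 to 1.62). The other higher H2B genes were H2BC8, H2BC15 and H2BC26, with log2 ratios of 0.74, 0.71 and 0.63. The 5 whose intervals included 0 ran from H2BC9, with 35 and 25 counts at a log2 ratio of −0.30, to H2BC7, with 19 and 25 counts and 0.56.

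The 32 detected genes under 20 counts reached at most 14 counts in a library, in H2BC13, with 14 in DMSO and 5 in omipalisib. They were 4 H1, 8 H2A, 4 H2B, 7 H3 and 9 H4 genes. The highest of the H2A genes was H2AC15, with 8 and 4 counts, and of the H3 genes H3C13, with 10 and 7. The genes at 0 in both libraries included H2AC1 and H2BC1, a head-to-head pair known from testis, and H3C3, H3C4, H3C8, H3C14 and H3C15 of the H3 family. Among all 70 genes, 17 share over 50% of their 75-base windows with another annotated gene and 7 share all of them. Fragments from such copies can be lost or split in counting, so a low count there is uncertain. H3C14 and H3C15 are among those that share all windows. The counted models of H3C4 (100%), H2AC7 (98.0%) and H2AC17 (88.0%), all at 0 in both libraries, overlap another gene on their strand. The counting drops fragments shared between exons of different genes, so the 0 of H3C4 says nothing of its expression, and those of H2AC7 and H2AC17 say little.

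H1, H3 and H4 were carried by few genes. H1-2 (chromosome 6, 26055787 to 26056428), a linker histone that binds between nucleosomes, was the 1 measured H1 gene, with 180 counts in DMSO and 225 in omipalisib at a log2 ratio of 0.49 (0.21 to 0.79). H1-3, H1-4 and H1-5 had at most 10 counts in either library, H1-6 had 0 and 1, and H1-1 had 0 in both. H3C10 was the 1 measured H3 gene, with 61 and 66 counts, and its interval included 0. Of the 4 measured H4 genes, H4C8 (chromosome 6, 26277609 to 26285638) had 59 and 133 counts for a log2 ratio of 1.34 (0.89 to 1.81). H4C5 had 23 and 12, H4C16 28 and 30, and H4C9 15 and 11, each with an interval that included 0.

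**Figure D2:**
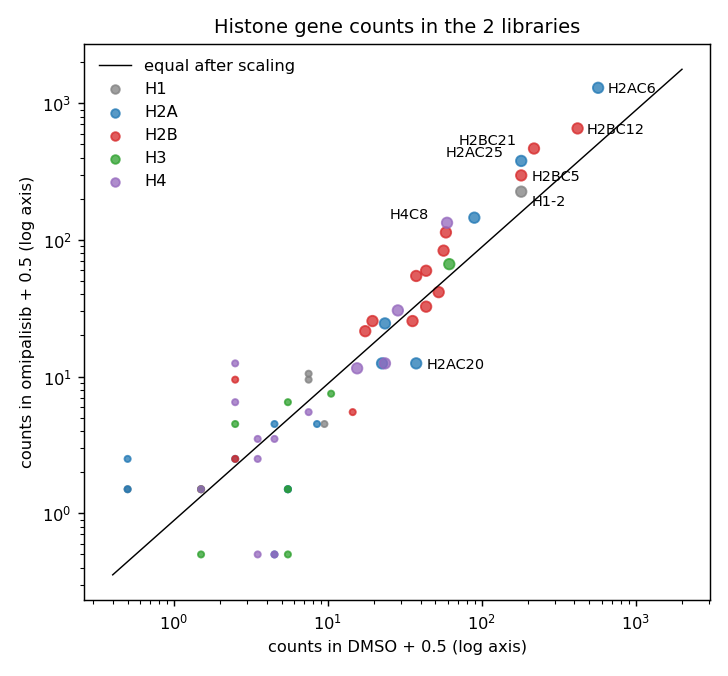
Counts in DMSO (x axis) and in omipalisib (y axis), both plus 0.5 on log axes, for the 56 histone genes with at least 1 count; large points are the 24 measured genes, and the line marks equal levels after scaling. H2AC6, H2BC12, H2BC21 and H2AC25 lie at the top and above the line, and H2AC20, with 37 and 12 counts, lies below it.

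Summed by family, H2A counts were 949 in DMSO and 1883 in omipalisib for a log2 ratio of 1.16 (1.05 to 1.28). H2B counts were 1196 and 1886 for a log2 ratio of 0.83 (0.73 to 0.94). H4 had 154 and 218 counts for a log2 ratio of 0.67 (0.37 to 0.98), and H1 had 203 and 249, with 0.47 (0.20 to 0.74). H3 had 90 and 85 counts, and its log2 ratio of 0.09 (−0.35 to 0.54) had an interval that included 0. The H2A ratio exceeded that of H3 by 1.07 (0.61 to 1.53) and that of H2B by 0.33 (0.18 to 0.49) on the log2 scale, counting error only. Single genes weighed on these sums: without H2AC6 the H2A ratio was 0.80 (0.61 to 0.99). With the single-exon H4 genes alone, which leaves out H4C8, H4C14, H4C15 and H4C16, the H4 ratio was −0.24 (−0.81 to 0.32).

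The genes lie in groups more than 300 kb apart, most of them on chromosomes 6 and 1. On the short arm of chromosome 6, the group from 25726132 to 26285638 holds 34 genes, with 1252 counts in DMSO and 2194 in omipalisib for a log2 ratio of 0.98 (0.88 to 1.08). The group from 27125897 to 27147515 holds 5 genes, with 575 and 852 counts at a log2 ratio of 0.74 (0.59 to 0.90). The group from 27807444 to 27893843 holds 16 genes but only 181 and 198 counts, and its log2 ratio was 0.30 (0.0051 to 0.60). With DESeq2 size factors this interval included 0, at 0.26 (−0.03 to 0.56). On the long arm of chromosome 1, the 11 genes from 149782689 to 149888013 had 332 and 609 counts for a log2 ratio of 1.05 (0.85 to 1.25). Only 3 of these genes were measured. H2BC21, with 218 and 466 counts, and H2BC18, with 58 and 113, were higher and gave most of the sum. H2AC20, with 37 and 12, was lower, so the ratio does not describe the group as a whole. The 2 genes from 228456979 to 228460470, H2AC25 and H2BC26, had 223 and 437, with 1.14 (0.91 to 1.38). H4C16 stands alone on chromosome 12, and H2BC12L alone on chromosome 21, with 1 count in each library. Without H2AC6 the first group on chromosome 6 had a log2 ratio of 0.57 (0.42 to 0.71), and with single-exon genes alone 0.29 (0.09 to 0.50).

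Genes whose counted model ran past the stem-loop held most of the counts. These 24 genes had 1735 counts in DMSO and 3253 in omipalisib for a log2 ratio of 1.08 (1.0 to 1.17). Of the 18 measured among them, 10 were higher and none was lower, against 26.1% and 28.6% of all measured genes. Among measured genes with no more counts than the highest histone gene, these shares were 25.3% and 16.4%. The 7 genes whose model ended within 100 bases of the stem-loop had 64 and 48 counts for a log2 ratio of −0.24 (−0.81 to 0.32). Only 2 of the 7 were measured, H2AC8 at −0.67 and H2AC13 at 0.23, both with intervals that included 0. H2AC13, H2AC18, H2AC19 and H4C11 share over 50% of their windows, so the sum of the 7 is uncertain. The difference between the sums of the 24 and of the 7 genes was 1.32 (0.75 to 1.90) on the log2 scale, counting error only. The 37 genes with no stem-loop in their transcripts had 788 and 1019 counts for a log2 ratio of 0.54 (0.41 to 0.68), and H2BC12 and H1-2 gave most of them. Among genes with a stem-loop, the length of model after it had a median of 1692 bases, from 390 to 4131, in the 10 higher genes, and of 581 bases, from 39 to 2170, in the 10 whose intervals included 0. These calls depend on counts as well as on ratios, and low counts went with short models. The lengths overlapped: H4C16, with 2170 bases after the stem-loop, and H2BC9, with 1640, had intervals that included 0, while H2AC25, with 390, and H2BC5, with 414, were higher. H2BC8, with 1059 bases after the stem-loop, was higher, and H4C5, with 1022 bases and the same stem-loop form as H4C8, had 23 and 12 counts. The limit of 100 bases was set after the values had been seen. The counts do not say from which part of a model the fragments came, so the share of longer messages was not tested.

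**Figure D3:**
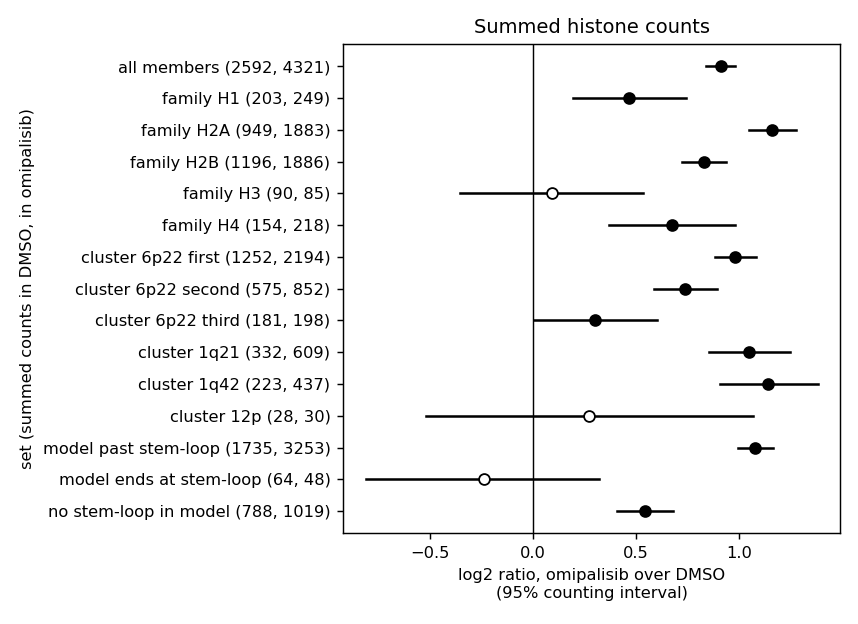
Log2 ratio of summed counts, omipalisib over DMSO (x axis), for all 70 genes (all members), for each family, for groups on the chromosomes and by gene model (y axis, with the summed counts in DMSO and in omipalisib). Bars are 95% counting intervals; the intervals of H3, of H4C16 alone at 12p and of models that end at the stem-loop include 0.

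Many H2A and H2B genes lie head to head and share the stretch between their starts. At H2BC12 and H2AC12, 331 bases apart, H2BC12 had 419 and 654 counts and H2AC12 had 0 and 1. In 5 such pairs, with starts less than 1 kb apart, both genes were measured. At H2BC21 and H2AC20, 323 bases apart, the genes went opposite ways, with 218 and 466 counts for H2BC21 against 37 and 12 for H2AC20, and the log2 ratios differed by 2.72 (1.71 to 3.82). At H2BC4 and H2AC6, 219 bases apart, H2AC6 was higher while H2BC4 had 43 and 32 counts and an interval that included 0. The difference, H2BC4 minus H2AC6, was −1.61 (−2.34 to −0.90) on the log2 scale. At H2BC11 and H2AC11, H2BC11 had 52 and 41 counts against 89 and 145 for H2AC11 (H2BC11 minus H2AC11 −1.04, −1.79 to −0.30). At H2BC8 and H2AC8, H2BC8 had 56 and 83 counts against 22 and 12 for H2AC8 (H2BC8 minus H2AC8 1.43, 0.23 to 2.70). At H2AC25 and H2BC26 both were higher, and the interval of the difference, 0.61 (−0.05 to 1.27), included 0. The partners also differed in counted model. Bases after the stem-loop were 1729 in H2BC21, 1128 in H2AC6, 1761 in H2AC11 and 1059 in H2BC8, which had the greater ratios. Of their partners, H2BC4 had 379 and H2AC8 51, and the transcripts of H2AC20 and H2BC11 held no stem-loop. H2AC25 had 390 and H2BC26 1917. The part of the gene model in these differences was not tested. How often other pairs of measured genes differ was not tested either, so the differences are not shown to be particular to head-to-head pairs.

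**Figure D4:**
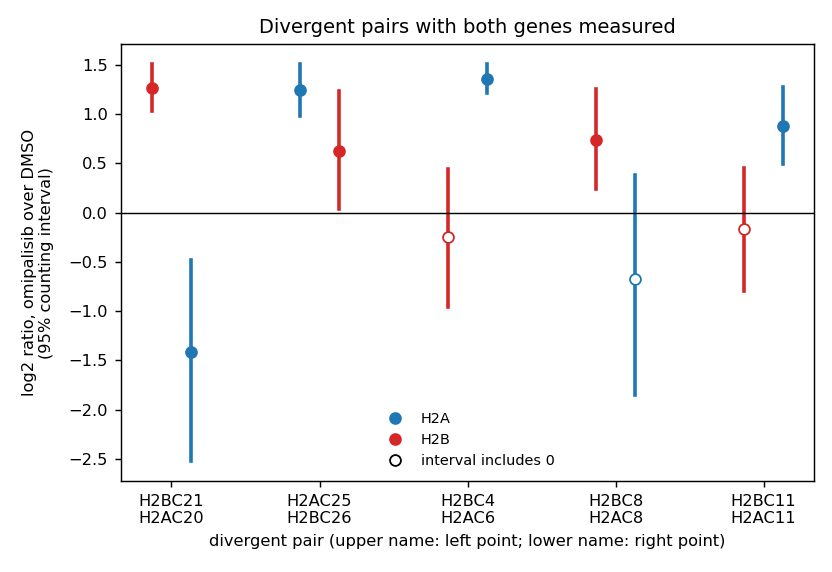
Log2 ratio of omipalisib over DMSO (y axis) for both genes of each head-to-head pair (x axis; the upper name is the left point), with 95% counting intervals as bars and open points where the interval includes 0. In 4 of the 5 pairs the intervals of the differences exclude 0, and at H2BC21 and H2AC20 the genes lie on opposite sides of 0. The share among other pairs of measured genes was not computed.

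The stretches between the starts of H2BC21 and H2AC20 and of H2BC4 and H2AC6 are printed because each lies before both genes of a pair whose ratios differed. They are RefSeq promoters on GRCh38.p14, from 250 bases before to 50 after the start of the H2A gene, on the plus strand. That of H2AC20 is chr1:149886668-149886967 and that of H2AC6 is chr6:26123922-26124221. Capitals mark matches on either strand, which may overlap, to the CCAAT box, to the TATA box (searched as TATAAA) and to the octamer (searched as ATTTGCAT), which POU factors such as POU2F1 bind.
H2AC20: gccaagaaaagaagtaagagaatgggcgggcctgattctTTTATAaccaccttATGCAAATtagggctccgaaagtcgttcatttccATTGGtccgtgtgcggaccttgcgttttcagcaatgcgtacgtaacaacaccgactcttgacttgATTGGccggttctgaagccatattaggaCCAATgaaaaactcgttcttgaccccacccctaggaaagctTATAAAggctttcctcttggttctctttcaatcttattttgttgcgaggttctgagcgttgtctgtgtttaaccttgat
H2AC6: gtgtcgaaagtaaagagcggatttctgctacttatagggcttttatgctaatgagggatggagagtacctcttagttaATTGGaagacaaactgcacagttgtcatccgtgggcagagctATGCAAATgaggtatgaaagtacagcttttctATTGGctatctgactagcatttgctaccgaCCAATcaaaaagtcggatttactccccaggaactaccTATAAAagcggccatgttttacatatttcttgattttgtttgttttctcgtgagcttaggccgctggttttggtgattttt
Both stretches hold 3 matches to CCAAT and 1 to the octamer, and they hold 2 and 1 to TATAAA. Of the 64 member promoters in the table, 54 held CCAAT on either strand (84.4%, against 35.7% of all 27305 promoters), 42 held TATAAA (65.6% against 12%) and 26 held the octamer (40.6% against 1.8%). The octamer was in 14 of 18 H2B and 11 of 16 H2A promoters and in none of the 6 H1 and 13 H4 promoters. The 1 match among 11 H3 entries, that of H3C4, is the same stretch as the entry of H2AC7 and lies away from the counted H3C4 model, so it was counted in both families. Head-to-head neighbours also share letters, so the promoters are not independent. For H2BC6, H2BC15, H4C9, H3C8 and H4C8, among others, the RefSeq start also differs from that of the counted model. The octamer was in 6 of the 12 higher genes, in 6 of the 11 whose intervals included 0, and in H2AC20. A match describes these letters and no binding.

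Per length, the histone genes were low beside H2AZ1 and H3-3B, which encode the replication-independent variants H2A.Z and H3.3. In CPM per kilobase of counted model, H2BC12 had a level of 42.4 in DMSO and 74.7 in omipalisib, H2AC6 13.2 and 33.8, H1-2 10.8 and 15.2, H2BC5 7.97 and 14.8, and H2AC25 7.76 and 18.4. H2BC21 followed with 3.83 and 9.24, and H2AC20 with 3.66 and 1.34. The median level of the 24 measured genes was 1.77 in omipalisib, against 6.15 over 12261 measured protein-coding genes. For comparison, the level in DMSO was 381 for H2AZ1 and 134 for H3-3B, the highest of the listed replication-independent histones. The other measured ones ranged in DMSO from 3.39 (H2AJ) to 75.8 (H2AX). The histone genes named above, which had the highest levels in DMSO, lay within that range, and H2BC12 lay above H2AZ2 at 39.8. The remaining measured replication-dependent genes lay below the range, from H2BC11 at 2.11 to H2BC6 at 0.25. In DMSO the median of the 24 measured genes was 1.60, against 6.16 over the measured protein-coding genes.

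Replication-independent histones had 11 measured genes, 8 lower and 2 higher, against 28.6% and 26.1% of all measured genes, and their median log2 ratio was −0.32. At a ratio of at least 1.5, 3 of the 11 were lower and 1 higher, against 4.76% and 9.58%. These genes and those of the lists that follow had more counts than most, with median summed counts from 2933.5 to 7157 against 967 over all measured genes, so smaller differences pass the counting interval. H2AZ1 had 22438 counts in DMSO and 11282 in omipalisib for a log2 ratio of −0.82 (−0.85 to −0.79). H2AX, whose protein marks DNA breaks when phosphorylated, had −0.68 (−0.76 to −0.59), and CENPA, the H3 of centromeres, had −0.64 (−0.79 to −0.49). H3-3A and H3-3B had −0.32 and −0.39. H1-10, a linker histone, was higher at 0.16 (0.07 to 0.24). The interval of H2AJ, an H2A variant, included 0.

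Among 26 genes whose products end, cleave and degrade histone messages, 17 were lower and 6 higher, against 28.6% and 26.1% of all measured genes, and their median log2 ratio was −0.26. The differences were small: 1 of the 26 was lower by a ratio of at least 1.5, against 4.76%, and none was higher by it. SLBP, the stem-loop binding protein, had 3527 counts in DMSO and 2210 in omipalisib for a log2 ratio of −0.50 (−0.58 to −0.42). LSM10 and LSM11, the subunits particular to the U7 snRNP, had −0.37 (−0.54 to −0.21) and −0.25 (−0.43 to −0.07). CASP8AP2, the FLASH protein that joins U7 to the cleavage complex, had −0.45, and ERI1, the exonuclease that trims the stem-loop, had −0.33. The lowest was SNRPG, a core protein of spliceosomal snRNPs and U7, at −0.76. The 6 higher genes were CSTF2T (0.41), CTIF (0.34), TUT4 (0.33), TUT7 (0.19), XRN1 (0.14) and MIF4GD (0.14). TUT4 and TUT7 add uridines to RNA ends.

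Of 16 genes of histone gene transcription, 10 were lower and 3 higher, against 28.6% and 26.1% of all measured genes, and the median log2 ratio was −0.12. At a ratio of at least 1.5, 3 were lower and none higher, against 4.76% and 9.58%. NPAT, the coactivator of histone loci, had 1009 and 851 counts and an interval that included 0. CDK2 and its partner cyclins CCNE1 and CCNE2, which act on NPAT, had −0.56 (−0.65 to −0.47), −0.36 and −0.65. CCNA2 had −0.86 (−0.94 to −0.79). HINFP, a factor for H4 genes, was higher at 0.23 (0.08 to 0.38). POU2F1, which binds the octamer, had 1874 and 1745 counts and an interval that included 0.

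Of 27 histone chaperone and deposition genes, 22 were lower and 2 higher, against 28.6% and 26.1% of all measured genes, and the median log2 ratio was −0.38. At a ratio of at least 1.5, 8 were lower, against 4.76%, and none higher. CHAF1B and CHAF1A of the CAF-1 complex, which deposits H3 and H4 at forks, had −0.90 (−1.12 to −0.69) and −0.70. ASF1B, which hands H3 and H4 to CAF-1, had −0.70, and HAT1, which acetylates new H4, −0.71. NASP, which holds soluble H3 and H4, had −0.49. The higher members were ATRX (0.14) and NAP1L1 (0.13). All 20 listed S phase genes were lower, 16 of them by a ratio of at least 1.5, against 28.6% and 4.76% of all measured genes. Their median was −0.67, with PCNA at −0.62 and CDC6 at −0.99 among them. SLBP is counted in both its lists.

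**Figure D5:**
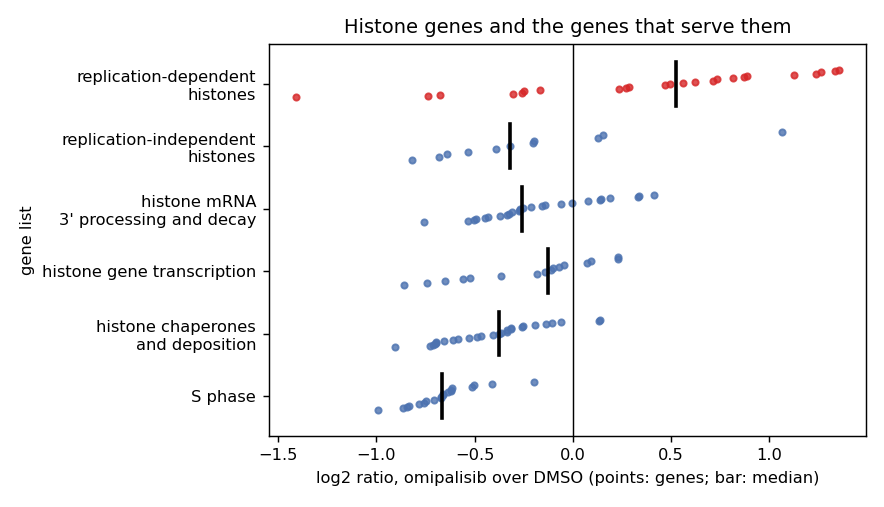
Log2 ratio of omipalisib over DMSO (x axis) for each measured gene (points) of the replication-dependent histone genes and of 5 other lists (y axis), with the list median as a bar. The histone genes have a median of 0.53 and the S phase genes one of −0.67, with all 20 below 0.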

How the data were processed

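Strand-specific libraries were made from total RNA by TruSeq stranded chemistry, per the labels' protocols. The deposited unit is raw counts of fragments per gene, made by the authors with featureCounts 2.0.1 from exons summed per gene, for pairs with both ends aligned, a checked fragment length and strand setting 2, per the file headers. The headers record no option for fragments with several alignments, which that tool leaves out by default, so near-identical copies are undercounted: 17 genes share over 50% of their 75-base windows with another annotated gene, and 6 overlap a gene on their strand. The submitters' processing notes name hg19 and GRCh37, but all 68 histone genes found in GENCODE 29 overlap its GRCh38 positions. The aligner is not given in the sources used here.

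Libraries were scaled with TMM in edgeR 4.0.16 (R 4.3.3), and 0.5 was added to each count for log2 ratios. Intervals are exact Clopper-Pearson 95% intervals of the omipalisib share, or exact conditional intervals of an odds ratio for differences (scipy 1.17.1). The headers record no molecular identifiers, and intervals cover counting error only. The interval step was tested on simulated data. Symbols came from the supplied name table, 2 of them from RefSeq, and windows and stem-loops from GENCODE 29 transcripts. Histone genes reaching 100 counts in a library, and the extremes of the rest, were named, and others were named with their values known. The genes and lists were chosen with earlier results of these data known. Alternatives changed the scaling (DESeq2 1.42.0 among them), the minimum count, the added count, the depth and the genes included. The values of 1 listed gene are not reported here.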

Additional observations from a re-analysis of the deposited data

How the results depend on the processing

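No paired analysis was possible because each treatment has 1 library, and leaving out a replicate could not be done for the same reason. Of 114 recomputed values, 103 stayed within the interval of the reported value, or within 1.5 times it for counts of genes, although the third group on chromosome 6 had an interval that included 0 under 5 settings, and the median without a minimum count was 0.17. None of the 3 other scalings, the added count of 5 or thinning of DMSO to the depth of omipalisib moved a value further than that. With a minimum summed count of 100, no gene was lower in place of 1, since H2AC20 fell below the minimum, and the median log2 ratio was 0.88 in place of 0.53. With single-exon genes alone, 7 genes were higher in place of 12, and the log2 ratio of the sum was 0.75 over all genes, 0.80 for H2A and 0.29 for the first group on chromosome 6, while that of H4 turned to −0.24 with an interval that included 0, since H4C8, H4C14, H4C15 and H4C16 were left out. Without H2AC6 the ratio was 0.75 over all genes, 0.80 for H2A and 0.57 for the first group on chromosome 6. Without genes that share over 50% of their windows, which leaves out H2BC12, the second group on chromosome 6 had 0.52 in place of 0.74. Depth limits the 46 genes under 20 counts, for which only large differences could be seen.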

Other observations

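Among the genes under 20 counts, 2 had intervals that excluded 0, and they were singled out after their values were seen: H4C12 had 2 counts in DMSO and 12 in omipalisib, and H2BC17 had 2 and 9. All windows of H4C12 occur in another annotated gene, so its counts are uncertain. H3C1 had 5 and 0 counts, and H2AC21 and H4C13 each had 4 and 0.

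A list of RNAs known to lack a poly(A) tail could not serve as a comparison: 10 of its 11 entries were listed at 0 in both libraries. The spans of 9 of these, introns included, overlap that of another annotated gene on their strand. The counting drops fragments shared between exons of different genes, but whether the exons overlap here was not checked. RN7SL1, the RNA of the signal recognition particle, had 409 counts in DMSO and 296 in omipalisib for a log2 ratio of −0.29 (−0.51 to −0.07).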
